A study of Mus musculus with 49 samples.

Results

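The 6 genes described here encode the tachykinin precursors Tac1 and Tac2, the tachykinin receptors Tacr1 and Tacr3, and the precursors of the peptides CART (Cartpt) and neurotensin (Nts). They were chosen by name, and all 6 were found among the 52636 genes of the count table. RNA came from medium spiny neurons (MSNs) in the nucleus accumbens of mice on a C57BL/6J background, with 1 mouse behind each library. The labels name no treatment, and age is not given in the sources used here. D1-MSNs carry the D1 dopamine receptor and D2-MSNs the D2 dopamine receptor. For whole cell-FACS (8 D1 and 6 D2 libraries, male), fresh tissue was digested with papain and cells with a cytoplasmic fluorophore under the Drd1 or Drd2 promoter were sorted. For nuclear-FACS (6 D1 and 5 D2, male), nuclei were sorted from frozen tissue of Drd1-cre or Drd2-cre mice that carried Thy1-loxPSTOPloxP-EGFP-F. For RiboTag (6 D1 and 6 D2 male, 5 D1 and 5 D2 female), ribosomes with an HA-tagged Rpl22 were pulled down from fresh tissue of Drd1-cre or Drd2-cre mice, so these libraries hold ribosome-bound RNA. Their cross was Rpl22-loxPexon4loxP-exon4-HA. In each method the label depends on the Drd1 or Drd2 promoter, and so may also mark cells other than MSNs. It acts through Cre in the nuclear and RiboTag mice, and the nuclear EGFP construct also carries Thy1.

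Tachykinins are short secreted peptides. Tac1 gives rise to substance P and neurokinin A, and Tac2 to neurokinin B. Substance P acts mainly through the receptor NK1, encoded by Tacr1, and neurokinin B through NK3, encoded by Tacr3, both of which couple to Gq proteins and raise intracellular calcium. Substance P is a classical peptide of D1-MSNs, whereas in the striatum NK1 is best known from cholinergic interneurons and from interneurons that make somatostatin and neuropeptide Y. CART and neurotensin are accumbens peptides that have been studied in feeding, reward and responses to psychostimulants.

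On GRCm38, Tac1 (ENSMUSG00000061762) lies on the plus strand of chromosome 6 at 7554879-7565834, and Tacr1 (ENSMUSG00000030043) on the plus strand of the same chromosome at 82402334-82560104. Tac2 (ENSMUSG00000025400) lies on the plus strand of chromosome 10 at 127724478-127731768, and Nts (ENSMUSG00000019890) on the minus strand of chromosome 10 at 102481756-102490486. Tacr3 (ENSMUSG00000028172) lies on the plus strand of chromosome 3 at 134829007-134934579. Cartpt (ENSMUSG00000021647) lies on the minus strand of chromosome 13 at 99898489-99901091. No other annotated gene overlapped any of them. Reads were counted over the whole gene body, introns included, and the span differs widely among the 6, from 2603 bases in Cartpt to 157771 in Tacr1, while their summed exons cover 1277 and 6491 bases.

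Total counts per library were 10476223 to 27965357 in whole cell, 3701255 to 68777008 in nuclear and 24076888 to 45641342 in RiboTag libraries. The nuclear totals were 68777008, 5020676, 43098274, 5774887, 3837701 and 8154682 in D1 and 35944738, 47079150, 46983792, 38446843 and 3701255 in D2. Raw nuclear counts of D1 and D2 are therefore not on the same scale. Drd1, the gene that drives the D1 label, had a mean of 48.6 FPKM in whole cell D1 and 1.78 in whole cell D2 libraries. FPKM is here counts per kilobase of gene span, scaled to CPM on effective library sizes. Drd1 was higher in every D1 than in every D2 library of each method. Drd2 was higher in every D2 than in every D1 library of whole cell and RiboTag, but overlapped in nuclear libraries (1.00 to 3.45 FPKM in D1, 2.28 to 4.83 in D2). In nuclear libraries Penk, the enkephalin precursor and a D2-MSN marker, ran against the label, with a log2 fold change (D2 over D1) of -2.44 (adjusted p = 0.00810) by edgeR's quasi-likelihood test. A background was estimated from genes taken to be silent in the nucleus accumbens. The 1932 olfactory and vomeronasal receptor genes gave a count per kilobase which, spread over all gene spans, corresponds to 8.06 to 51.2% of the counts in whole cell, 0.572 to 22.1% in nuclear D1, 32.05 to 51.7% in nuclear D2 and 0.0275 to 0.0618% in RiboTag libraries. This background differed between D1 and D2 in nuclear libraries without overlap. Values in FPKM were scaled within each method and are set side by side across methods only as such. The 10 genes with the most counts took 2.70 to 54.5% of whole cell, 5.23 to 66.9% of nuclear and 84.95 to 88.3% of RiboTag counts.

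**Figure D1:**
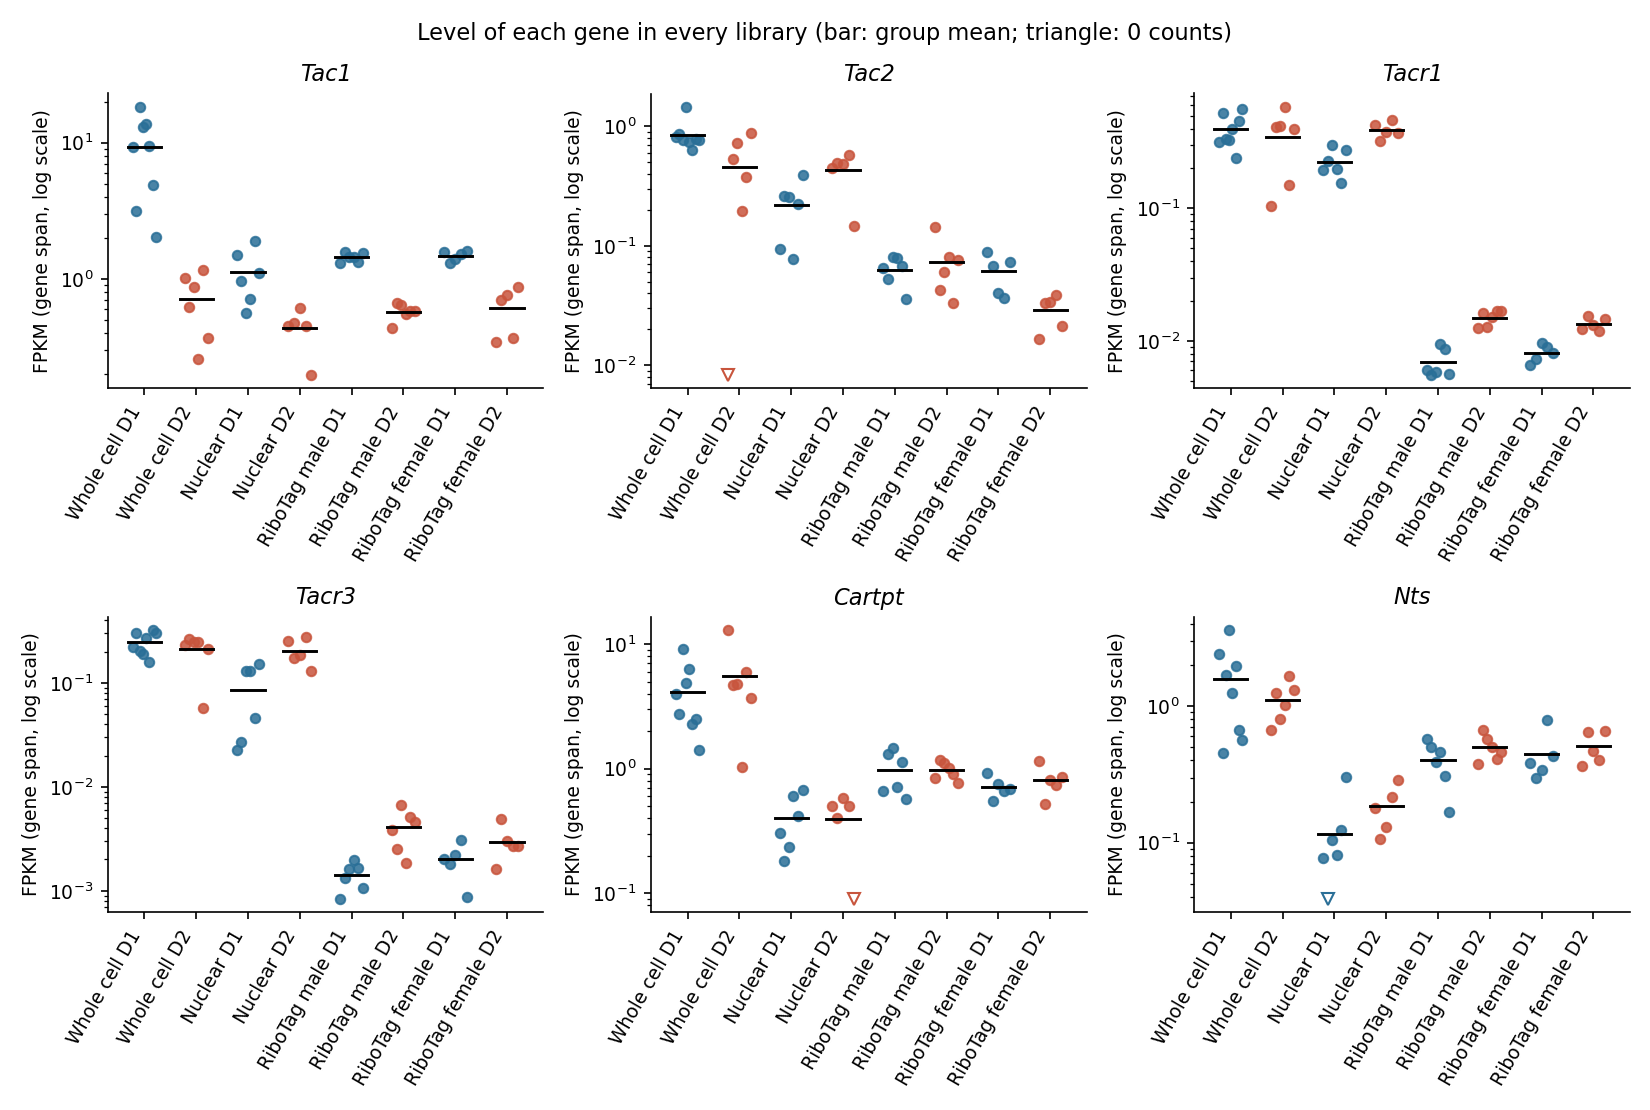
FPKM on gene span (log scale) of the 6 genes in each of the 47 libraries, with D1 libraries in blue, D2 libraries in red and the group mean as a bar. Triangles at the foot mark libraries with 0 counts. Tac1 is higher in D1 than in D2 libraries in whole cell and RiboTag without overlap. Tacr1 is higher in D2 in RiboTag and, before background subtraction, in nuclear libraries. Cartpt and Nts overlap in every method.

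Tac1 was the D1-enriched gene of the group. In whole cell libraries its count was 341 at the lowest, 2118 at the median and 3132 at the highest of 8 D1 libraries, and 40 at the lowest, 99.5 at the median and 314 at the highest of 6 D2 libraries. The corresponding level was 9.21 ± 5.64 (SD, n = 8) FPKM in D1 and 0.714 ± 0.358 (SD, n = 6) FPKM in D2. All 6 D2 libraries lay below the lowest D1 library, although the D1 libraries themselves spread from 2.04 to 18.3 FPKM. The log2 fold change was -3.88 (SE 0.385, adjusted p = 6.28e-06) by edgeR, with a 95% interval of -4.68 to -3.08. A gene was called where the adjusted p was at most 0.05, the absolute log2 fold change above 0.38 and the mean normalised count above the 25th percentile. Of the 16757 genes tested, 0.877% were called higher in D1 and 0.406% higher in D2, and with the size factors of DESeq2 the split turned from 147 against 68 genes to 62 against 159. Among the 6 genes, 1 was called in whole cell libraries (Tac1), and 4 were tested. A gene had to reach 1 FPKM in at least 1 library to be tested in whole cell or nuclear libraries, which Tacr1 and Tacr3 did not in whole cell libraries.

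In male RiboTag libraries, Tac1 FPKM was 1.30 at the lowest, 1.45 at the median and 1.58 at the highest of the 6 D1 libraries and 0.434 at the lowest, 0.577 at the median and 0.661 at the highest of the 6 D2 libraries. In female RiboTag libraries it was 1.56, 1.31, 1.41, 1.52 and 1.59 in D1 and 0.346, 0.699, 0.764, 0.366 and 0.866 in D2. In both sexes every D1 library exceeded every D2 library. The log2 fold change was -1.33 (SE 0.0728, adjusted p = 2.52e-12) in males and -1.30 (SE 0.172, adjusted p = 4.52e-05) in females by edgeR. Of all genes tested, 1.62% were called higher in D1 and 0.941% higher in D2 in males, and 1.17% and 0.722% in females. Tac1 was called in both, and it was the 1 gene called of the 3 in the group that passed the filters on low values (Tac1, Cartpt and Nts). Tac1 reads per Drd1 read, a ratio that does not depend on the scaling of libraries, was higher in D2 than in D1 in RiboTag. It ranged from 0.438 to 0.671 in male D1, 0.746 to 1.10 in male D2, 0.521 to 0.689 in female D1 and 0.758 to 0.969 in female D2 libraries, without overlap. Drd1 thus fell by more than Tac1 between D1 and D2, with log2 fold changes of -1.94 in males and -1.91 in females.

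In nuclear libraries, Tac1 FPKM was 0.561 at the lowest, 1.04 at the median and 1.89 at the highest of the 6 D1 libraries and 0.447, 0.475, 0.608, 0.451 and 0.197 in the 5 D2 libraries. Of the D2 libraries, 4 lay below the lowest D1 library. The log2 fold change was -0.46 (SE 0.268, adjusted p = 0.237) by edgeR, so Tac1 was not called (-0.53 to -0.23 with 1 library left out, the smallest without D2 number 7), while 9.8% of the genes tested were called higher in D1 and 3.18% higher in D2. Here a call also needed a standard error below the 75th percentile. Tac1 was the 1 gene of the 6 that passed the nuclear filters. Without the FPKM filter its log2 fold change was -1.69 (SE 0.387, adjusted p = 0.00832) by edgeR and it was called, as were 18.6% of genes in the same direction. With the filter on summed exon length the Tac1 value was -1.63 (SE 0.387, adjusted p = 0.0102) by edgeR, also called, as were 5784 of 28883 genes in the same direction. The median log2 fold change of all genes was 0.09 with the filter and 0.38 without it, and the value of Drd2 moved from 1.72 to 0.54. In 5 D2 libraries Tac1 counts were 1.15 to 3.47 times the receptor gene background for its span, against 4.42 to 128 times in D1. After the background was subtracted and the filters applied again, the log2 fold change was -0.92 (adjusted p = 0.106, edgeR).

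**Figure D2:**
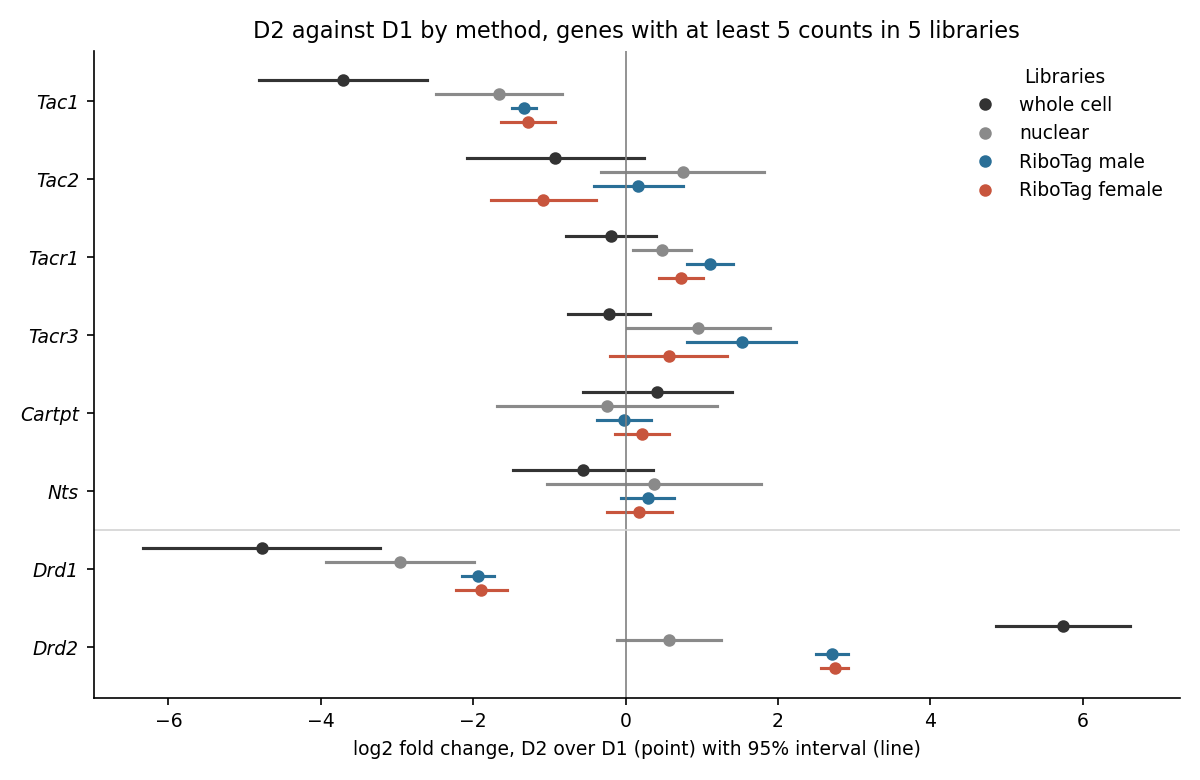
Log2 fold change of D2 over D1 for the 6 genes and, below the line, Drd1 and Drd2, by edgeR on genes with at least 5 counts in at least 5 libraries. Points are estimates, lines 95% intervals and colours the 4 sets of libraries. Tac1 lies on the D1 side in all 4 sets. Tacr1 lies on the D2 side in both RiboTag sets and in nuclear libraries (0.48, interval 0.0996 to 0.856), where the median over all genes is 0.51. Nuclear Tac1 is -1.66 here, against -0.46 and not called under the main filters. The filter shown was chosen after seeing the data.

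Tac2, the neurokinin B precursor, was sparse and was not called in any set. In whole cell libraries its count was 82 at the lowest, 88 at the median and 184 at the highest of the 8 D1 libraries and 0 at the lowest, 39 at the median and 176 at the highest of the 6 D2 libraries, of which 1 had no count and so allows up to 3. It passed the whole cell filter, which its levels reached in 1 D1 library, with a log2 fold change of -1.002 (SE 0.587, adjusted p = 0.479) by edgeR. Nuclear counts, not scaled for depth, were 3 to 110 in D1 and 6 to 277 in D2, with mean FPKM of 0.217 and 0.430. RiboTag counts were 7 to 24 in male D1 and 7 to 31 in male D2 libraries. They were 21, 18, 10, 9 and 23 in female D1 and 5, 8, 11, 11 and 6 in female D2 libraries. The filters removed Tac2 from the nuclear and RiboTag sets. With a filter of at least 5 counts in at least 5 libraries, chosen after seeing the data so that all 6 genes could be tested, its log2 fold change was 0.17 (SE 0.285, adjusted p = 0.852) in male and -1.08 (SE 0.331, adjusted p = 0.0998) in female RiboTag libraries by edgeR. In females 4 of 5 D2 libraries lay below all D1 libraries, but the difference did not pass the adjusted threshold.

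Tacr1, the substance P receptor gene, was higher in D2 than in D1 in RiboTag. The counts were low, namely 34, 42, 52, 48 and 55 in female D1 and 81, 81, 92, 73 and 88 in female D2 libraries. In males they were 24 at the lowest, 35 at the median and 58 at the highest of 6 D1 libraries and 58 at the lowest, 84 at the median and 97 at the highest of 6 D2 libraries. In FPKM, which is scaled for library size, all D2 libraries lay above all D1 libraries in both sexes. The level per kilobase of span was 0.00688 ± 0.00175 (SD, n = 6) FPKM in male D1, 0.0150 ± 0.00191 (SD, n = 6) in male D2, 0.00815 ± 0.00126 (SD, n = 5) in female D1 and 0.0135 ± 0.00150 (SD, n = 5) in female D2 libraries. On summed exons the means were 0.167, 0.365, 0.198 and 0.329 FPKM, in the same order. These values on gene span were under the RiboTag minimum of 0.1 FPKM in at least 2 libraries, so Tacr1 was tested without that filter.

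Without the filter the log2 fold change of Tacr1 was 1.10 (SE 0.149, adjusted p = 1.48e-05) in males and 0.72 (SE 0.137, adjusted p = 0.00388) in females by edgeR, with 95% intervals of 0.79 to 1.41 and 0.44 to 1.01. By adjusted p and fold alone, 1.38% of genes in males and 0.933% in females were higher in D2. The mean normalised count of Tacr1 was 56.0 in males, just under the 25th percentile of 56.1, so by the full rule it was called in females and not in males. Leaving out any 1 library kept the log2 fold change between 1.05 and 1.23 in males and between 0.66 and 0.79 in females. The interaction (female minus male) was -0.38 (SE 0.204, adjusted p = 0.818) by edgeR under a filter of at least 5 counts in at least 5 libraries, so a difference between the sexes in this contrast did not pass the test.

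Markers of other neurons moved with the RiboTag contrast. The 4 cholinergic interneuron markers (Chat, Slc5a7, Slc18a3 and Lhx8) summed to 0.700 to 1.55 CPM (on effective library sizes) in male D1, 4.33 to 5.72 in male D2, 0.715 to 1.32 in female D1 and 2.39 to 7.32 in female D2 libraries, higher in D2 without overlap and with no marker at 0 throughout a group. The 9 GABA interneuron markers, among them Sst, Npy and Nos1, summed to 25.8 to 29.0 in male D1, 11.7 to 17.4 in male D2, 22.4 to 40.2 in female D1 and 9.74 to 22.8 in female D2, and so ran the other way, overlapping in females through 1 D2 library. Of these 9, Sst, Npy, Vip and Cck are also among the other neuropeptides below. The 5 glutamatergic markers were higher in D1 (18.9 to 48.2 against 1.51 to 12.4 in males, 13.7 to 40.7 against 2.22 to 7.87 in females). In whole cell libraries the cholinergic sums were 20.6 to 56.6 in D1 and 22.4 to 55.4 in D2, and Tacr1 was not called there. These sums were not corrected for background, and none of the 4 markers passed the whole cell filters. The highest sum, 56.6, was in D1 number 8, with a background of 51.2%, and the lowest, 20.6, in D1 number 6, with 13.2%. The whole cell sums therefore do not show whether cholinergic cells differed there. The part of these other neurons in the Tacr1 difference was not tested. In bulk samples, more cells of a type and more RNA per cell cannot be told apart.

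**Figure D3:**
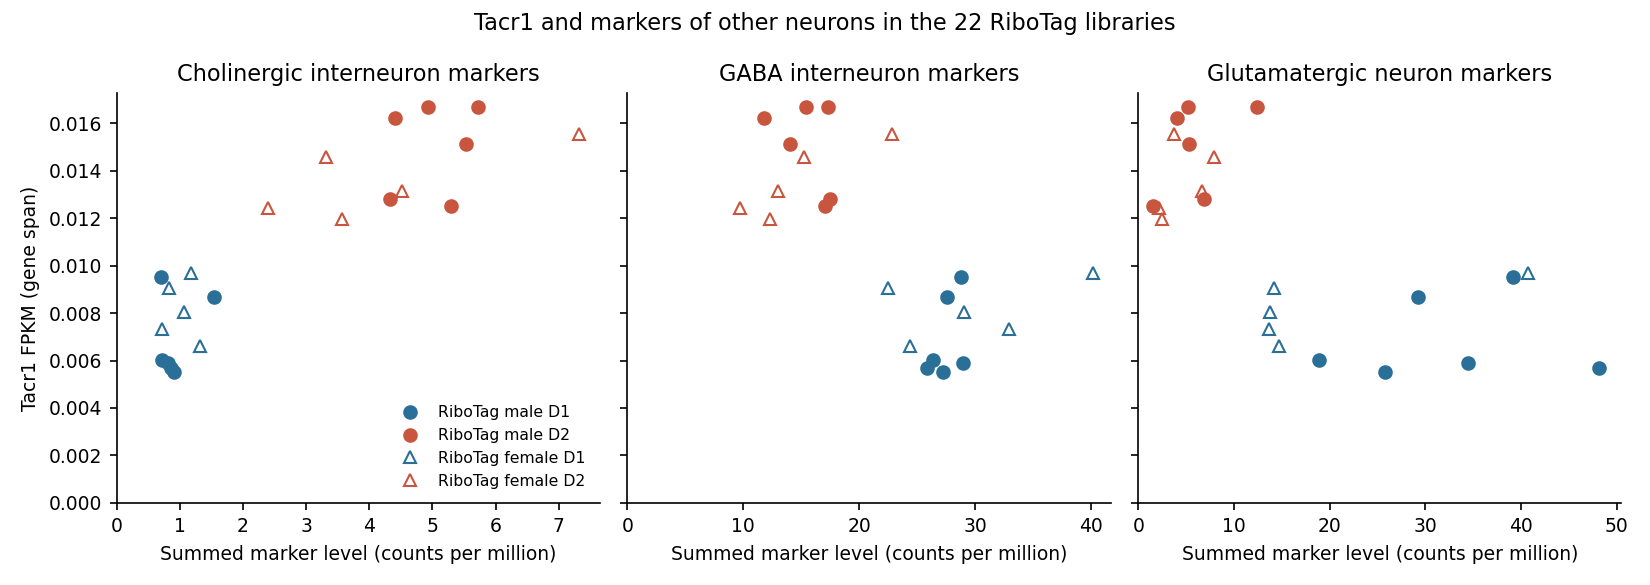
Tacr1 FPKM on gene span against the summed level of cholinergic, GABA interneuron and glutamatergic markers in the 22 RiboTag libraries (circles male, triangles female, blue D1, red D2). D1 and D2 libraries form separate groups along the cholinergic axis, with D2 libraries high on both axes, and D1 libraries are higher for the GABA markers, apart from 1 overlapping female D2 library, and for the glutamatergic markers.

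In FACS libraries the level of Tacr1 against the background varied with the set. Whole cell counts were 718 at the lowest, 1026 at the median and 1367 at the highest in D1 and 180 at the lowest, 747 at the median and 2190 at the highest in D2, which is 1.85 to 2.42 and 1.27 to 2.60 times the receptor gene background for a span of 157771 bases. RiboTag counts were 19.7 to 33.5 times it in male D1 and 37.1 to 71.0 times in male D2. The whole cell log2 fold change was -0.21 (SE 0.321, adjusted p = 0.9999) by edgeR, again without the FPKM filter. The nuclear level was 0.155 at the lowest, 0.213 at the median and 0.299 at the highest FPKM in D1 and 0.425, 0.322, 0.379, 0.464 and 0.372 in D2, higher in all D2 than in all D1 libraries, with a log2 fold change of 0.46 (SE 0.167, adjusted p = 0.0593) by edgeR beside a median of 0.38 over all genes. With the filter on summed exon length it was called, at 0.52 (SE 0.165, adjusted p = 0.0349) by edgeR beside a median of 0.25, where 5.51% of genes were called higher in D2. Nuclear counts were 2.36 to 16.8 times the background in D1 and 1.88 to 2.17 times in D2. With the background subtracted the nuclear levels overlapped, at 0.128 to 0.213 FPKM in D1 and 0.154 to 0.227 in D2. The nuclear cholinergic sums, not corrected for background, were also higher in D2 on the median, with 15.6 to 42.0 CPM in D1 and 33.0 to 48.2 in D2, and overlapped. The 1 cholinergic marker tested there, Slc18a3, was at -0.22 (adjusted p = 0.864) by edgeR. Median sums, likewise uncorrected, were also higher in D2 for GABA interneuron (111.3 against 140.3) and endothelial markers (37.0 against 127). The same held for glutamatergic (103.9 against 115.7) and microglia markers (112.3 against 120.5). Median sums were lower in D2 for astrocyte (195 against 130) and oligodendrocyte markers (720 against 370). The part of cholinergic cells in the Tacr1 result was not tested.

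Tacr3, the neurokinin B receptor gene, was nearest to the background. In whole cell libraries counts were 1.10 to 1.56 times the background in D1 and 0.652 to 2.83 times in D2, and in nuclear D2 libraries 0.754 to 1.17 times. In RiboTag, counts were 3 to 8 in male D1 and 6 at the lowest, 14 at the median and 29 at the highest of 6 male D2 libraries. Female counts were 7, 7, 8, 11 and 4 in D1 and 7, 17, 14, 11 and 11 in D2. Of the male D2 libraries, 5 of 6 lay above all D1 libraries in FPKM, and with the filter of at least 5 counts in at least 5 libraries the log2 fold change was 1.52 (SE 0.347, adjusted p = 0.00502) in males and 0.57 (SE 0.369, adjusted p = 0.598) in females by edgeR. By adjusted p and fold alone, 1.14% of genes in males and 0.734% in females were higher in D2 under that filter. The male value passed those limits but not the one on the mean count, the female value passed neither p nor mean count, and the interaction of -0.96 (SE 0.517, adjusted p = 0.823) by edgeR did not separate the sexes. The cholinergic marker sums given above were also higher in D2, and the GABA interneuron and glutamatergic sums were higher in D1, the former with an overlap in females. No cholinergic marker passed the RiboTag filters. The part of any of these cells in the Tacr3 values was not tested.

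**Figure D4:**
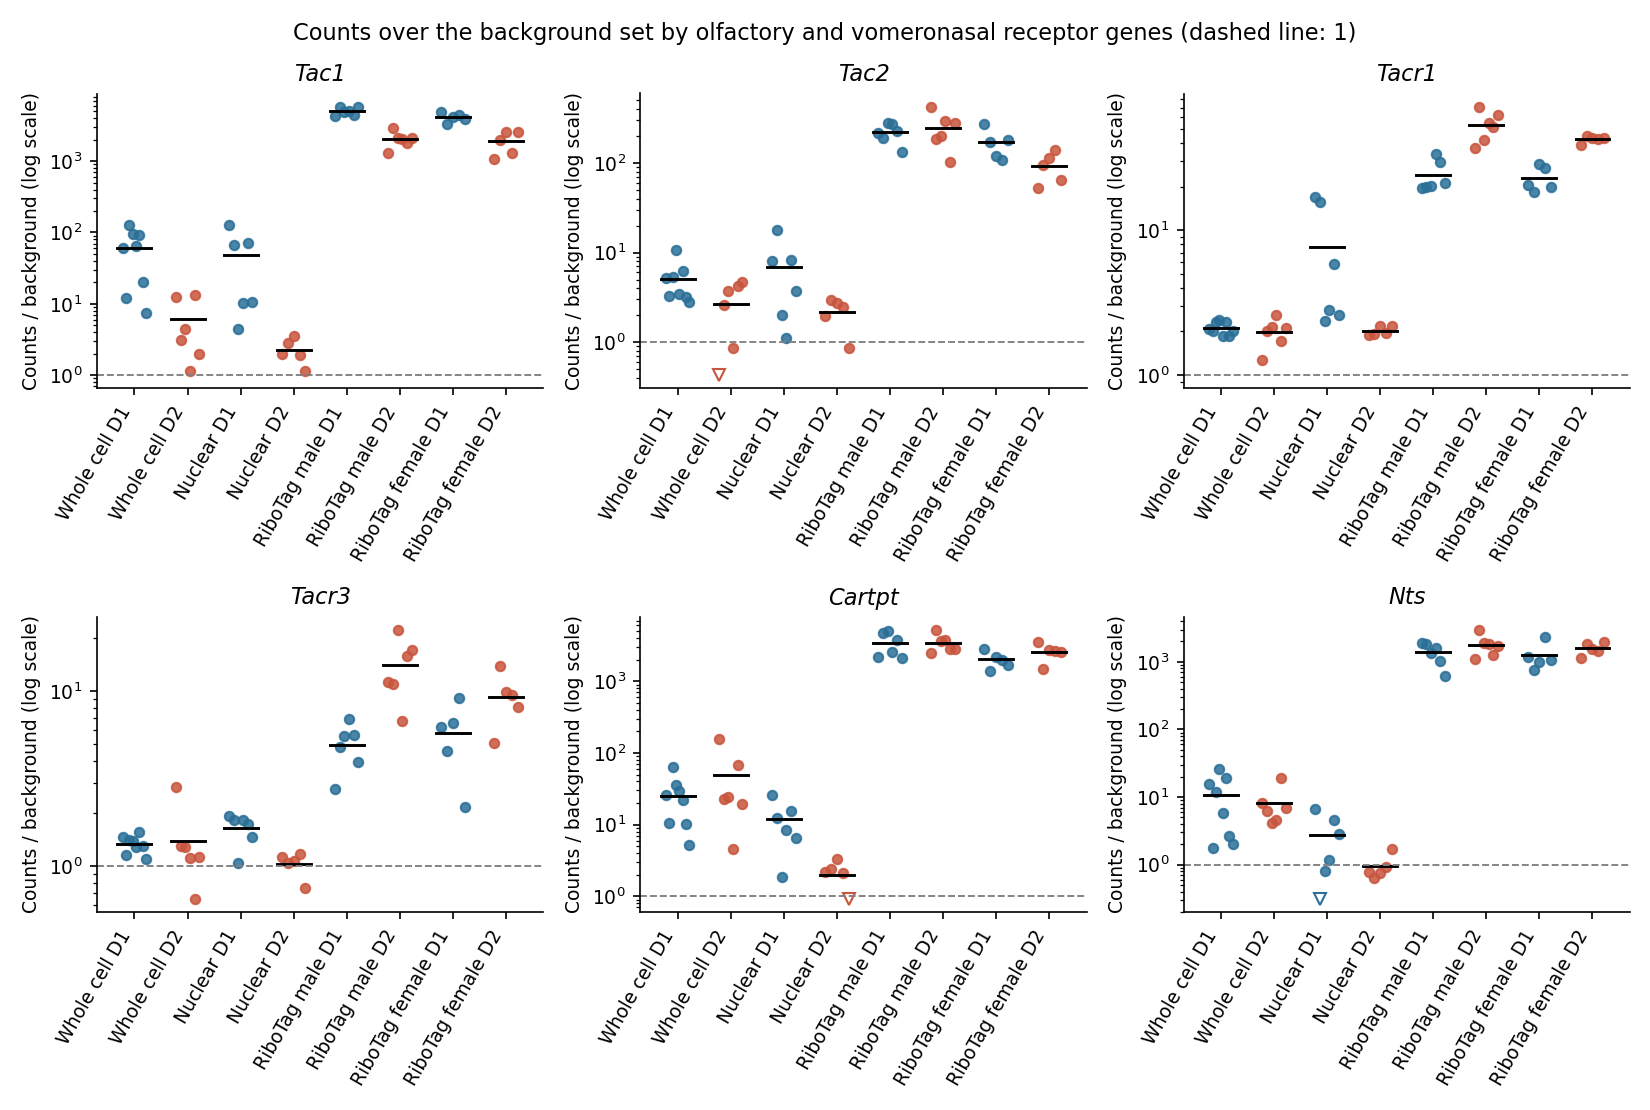
Counts of each gene divided by the count expected for its span from the olfactory and vomeronasal receptor genes (log scale), by library, with the group mean as a bar, triangles at the foot for 0 counts and a dashed line at 1. In whole cell and nuclear D2 libraries Tacr1 and Tacr3 lie near the line, and Tacr1 reaches 16.8 times in nuclear D1, whereas RiboTag Tac1, Cartpt and Nts lie far above it, Tac1 at 4274 to 5767 times in male D1 libraries.

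Cartpt, the CART precursor, was not called in any method, and its D1 and D2 levels overlapped in each. Whole cell FPKM was 1.41 at the lowest, 3.35 at the median and 9.06 at the highest in D1 and 1.03 at the lowest, 4.71 at the median and 12.9 at the highest in D2. The log2 fold change was 0.10 (SE 0.365, adjusted p = 0.968) by edgeR, with an interval of -0.66 to 0.86 that leaves room for a change in either direction. Its sign turned with background subtraction, with the replicate number as a block, and without either D1 number 6 or D2 number 1. RiboTag gave narrower intervals. FPKM was 0.573 at the lowest, 0.919 at the median and 1.46 at the highest in male D1 and 0.764 at the lowest, 0.964 at the median and 1.17 at the highest in male D2, with a log2 fold change of -0.03 (SE 0.183, adjusted p = 0.959) and an interval of -0.40 to 0.35 by edgeR. Its sign also turned with the block and without any of 5 of the 12 libraries. In females FPKM was 0.917, 0.549, 0.747, 0.662 and 0.684 in D1 and 1.14, 0.523, 0.813, 0.746 and 0.854 in D2, with a log2 fold change of 0.20 (SE 0.168, adjusted p = 0.650) and an interval of -0.15 to 0.55. Nuclear counts, not scaled for depth, were 2 to 36 in D1 and 0 to 107 in D2. The D2 library without a count, number 7, had the lowest total. Mean nuclear FPKM was 0.403 in D1 and 0.397 in D2. Cartpt failed the nuclear FPKM filter and, without it, gave -0.27 (SE 0.656, adjusted p = 0.743) by edgeR.

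Nts, the neurotensin precursor, was likewise not called, with overlapping levels in all sets. Whole cell counts were 66 at the lowest, 200 at the median and 546 at the highest in D1 and 64 at the lowest, 132 at the median and 232 at the highest in D2, and the log2 fold change was -0.57 (SE 0.347, adjusted p = 0.496) by edgeR, with an interval of -1.29 to 0.15. In RiboTag, FPKM was 0.167 at the lowest, 0.424 at the median and 0.577 at the highest in male D1, 0.376 at the lowest, 0.480 at the median and 0.667 at the highest in male D2, 0.382, 0.299, 0.341, 0.786 and 0.431 in female D1 and 0.363, 0.648, 0.472, 0.406 and 0.656 in female D2 libraries. Log2 fold changes were 0.28 (SE 0.181, adjusted p = 0.415) in males and 0.16 (SE 0.208, adjusted p = 0.793) in females by edgeR, with intervals of -0.09 to 0.65 and -0.27 to 0.60. Both intervals lie within an absolute log2 change of 1. Leaving out 1 library moved the value between 0.13 and 0.42 in males, between 0.0451 and 0.45 in females (the highest without D1 number 5) and between -0.67 and -0.20 in whole cell libraries (the latter without D1 number 4). In nuclear libraries Nts counts, not scaled for depth, were few, at 0 to 53 in D1 and 14 to 125 in D2. They were 0 to 6.71 times the background in D1 and 0.631 to 1.68 times in D2, and 1 D1 library was without a count. Mean nuclear FPKM of Nts was 0.115 in D1 and 0.184 in D2. Without the FPKM filter the nuclear log2 fold change was 0.35 (SE 0.647, adjusted p = 0.662) by edgeR.

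The levels of the 6 genes were set against each other per length of span. Tac1 had the highest mean FPKM of the 6 in 5 of the 8 groups, and Cartpt in the others, which were whole cell D2 and both RiboTag D2 groups. Over summed exons Tac1 led in 3 groups. Among protein-coding genes, the mean percentile rank of Tac1 on gene span came to 98.9 for whole cell D1, 85.3 for nuclear D1 and 97.5 for male RiboTag D1, against 57.0, 55.1 and 92.9 in D2. Nts ranked at 91.8 in male RiboTag D2 and at 13.5 in nuclear D2. In the order of the 8 group means, which are scaled within each method, the whole cell D1 level of Tac1 stood apart from the next group, and every later pair of neighbours overlapped. Cartpt and Tac2 overlapped between all neighbours. The Tacr1 and Tacr3 means were lowest in the 4 RiboTag groups, with a gap between nuclear D1 and male RiboTag D2. For Tacr1 a further gap lay between the D2 and D1 groups of RiboTag. Nts had a gap between whole cell D2 and female RiboTag D2.

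The methods were compared in 1 fit of the 37 male libraries, in which the comparisons share groups of libraries. The median log2 difference over all genes was -2.38 between RiboTag and whole cell in D1 and -2.30 in D2, so values are read against it. RiboTag minus whole cell was 0.94 (SE 0.324, adjusted p = 0.00982) for Tac1, 1.63 (SE 0.345, adjusted p = 7.83e-05) for Nts and 1.53 (SE 0.378, adjusted p = 0.000513) for Cartpt in D1, and -2.24 (SE 0.268, adjusted p = 2.73e-09) for Tacr1 and -3.83 (SE 0.419, adjusted p = 3.51e-10) for Tacr3 by edgeR. In D2 it was 3.26 for Tac1, 2.41 for Nts and 1.08 for Cartpt. Of all genes, 77.5% in D1 and 75.5% in D2 were called in this comparison by adjusted p and fold, against 5 of the 6 here in each. With the background subtracted the calls of Tac1, Nts and Cartpt in D1, and of Cartpt, Tacr1 and Tacr3 in D2, were lost, leaving 2 of the 6 called in each. The shares above belong to the fit without subtraction. None is given for the subtracted fit, so these losses cannot be set against those of all genes. In D1 the values were then 0.28 (adjusted p = 0.504) for Tac1, 1.20 (adjusted p = 0.0664) for Nts and 0.87 (adjusted p = 0.0504) for Cartpt by edgeR. In D2 they were 0.64 (adjusted p = 0.167) for Cartpt, -0.82 (adjusted p = 0.0610) for Tacr1 and -0.73 (adjusted p = 0.362) for Tacr3. The call of Tac1 in D1 was also lost with DESeq2, and that of Cartpt in D2 with DESeq2 and with its size factors. Nuclear minus whole cell was -3.18 (SE 0.448, adjusted p = 1.11e-06) in D1 and -2.33 (SE 0.426, adjusted p = 0.000105) in D2 for Nts by edgeR. For Cartpt it was -2.74 (SE 0.475, adjusted p = 3.67e-05) in D1 and -3.26 (SE 0.474, adjusted p = 3.71e-06) in D2, and for Tac1 -2.32 (SE 0.365, adjusted p = 7.30e-06) in D1 and -0.29 (SE 0.379, adjusted p = 0.659) in D2. The Nts values rest on few nuclear counts, and with the background subtracted they were -4.39 (adjusted p = 0.000127) in D1 and -6.91 (adjusted p = 4.33e-06) in D2 by edgeR. The subtraction set Nts to 0 in nuclear D1 number 3 and D2 numbers 1, 2, 3 and 5, and D1 number 2 had no count. The size of these subtracted values therefore depends on counts cut at 0. Without subtraction, 17.2% and 18.3% of genes were called between nuclear and whole cell libraries, and the median over all genes was -0.27 in D1 and 0.21 in D2. RiboTag minus nuclear was 4.81 in D1 and 4.73 in D2 for Nts, in a fit where 70.6% and 84% of all genes were called and the medians were -2.49 and -2.79. With the background subtracted the Nts values were 5.58 (adjusted p = 1.12e-06) and 8.94 (adjusted p = 4.86e-09) by edgeR. They rest on the same nuclear libraries cut at 0, and no share of all genes is given for that fit.

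The D2 minus D1 difference of Tac1 was smaller in size in nuclear and RiboTag than in whole cell libraries. It was less negative in nuclear than in whole cell libraries by 2.03 (SE 0.513, adjusted p = 0.00362) on the log2 scale, and in RiboTag than in whole cell libraries by 2.32 (SE 0.495, adjusted p = 0.0392), by the interaction terms of edgeR. The label genes also had terms in the direction of a smaller difference, of 1.78 (SE 0.689, adjusted p = 0.0555) and 2.83 (SE 0.673, adjusted p = 0.0987) for Drd1 and -5.11 (SE 0.490, adjusted p = 1.00e-08) and -2.94 (SE 0.455, adjusted p = 0.00128) for Drd2 by edgeR, with Drd2 called in both and Drd1 in neither. In these terms 23.3% and 0.0993% of all genes were called, and the median over all genes was 0.48 and 0.01. With the size factors of DESeq2 the nuclear median moved to 0.97 and the Tac1 value to 2.56. RiboTag and nuclear libraries differed by 0.29 (SE 0.521, adjusted p = 0.965), where 13.9% of genes were called. None of the other 5 genes was called in the 3 interaction terms by edgeR with TMM. Between nuclear and whole cell libraries Tac2 and Tacr3 were called with the size factors of DESeq2, and these and Tacr1 by DESeq2. The unadjusted p of edgeR was below 0.05 for Tac2 and Tacr3 between nuclear and whole cell libraries and for Tacr1 and Tacr3 between RiboTag and whole cell libraries. Of all 36239 genes, 14155 had such a p in the former term and 1600 in the latter.

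Sexes were compared in the 22 RiboTag libraries, in which 0% of genes were called between females and males in D1, 0.0696% in D2 and 0% in the interaction by edgeR, while 558, 523 and 510 of 7184 genes had an unadjusted p below 0.05. None of the 6 genes was called. Tac1 differed by 0.07 (SE 0.133, adjusted p = 0.938) in D1 and 0.10 (SE 0.157, adjusted p = 0.923) in D2, female minus male, with intervals of -0.20 to 0.34 and -0.22 to 0.42. Nts differed by 0.16 (SE 0.231, adjusted p = 0.912) and 0.04 (SE 0.220, adjusted p = 0.979). Cartpt had an unadjusted p of 0.0366 in D1 by edgeR, with a difference of -0.44 (SE 0.202, adjusted p = 0.581), and its ranges in the sexes overlapped. Tac2, under the filter on 5 counts, had a difference of -1.33 (SE 0.333, adjusted p = 0.184) in D2 by edgeR, which failed the adjustment.

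Around these genes, lists of related genes were tested in the same fits. Neither Tac4, which encodes hemokinin, nor the neurokinin A receptor gene Tacr2 passed the filters in any method. Of the 3 neurotensin receptor genes, 1 was tested in whole cell and RiboTag libraries (Sort1, the sorting receptor sortilin) and 2 in nuclear libraries, and none was called. In male RiboTag libraries the Sort1 value of -0.22 (adjusted p = 0.00620) had an absolute size under 0.38. Of 12 genes of peptide processing and dense-core granules, 9 were tested in each set. In nuclear libraries 7 of the 9 were called higher in D1, among them Pcsk1n, which encodes the proSAAS precursor, at -2.46 (adjusted p = 0.00810), Scg2, a granin, at -2.44 (adjusted p = 0.00810), Vgf at -1.47 (adjusted p = 0.00874) and Chga at -0.998 (adjusted p = 0.0235), with a median of -0.998 beside 0.09 for all genes. Over all genes 9.8% were called higher in D1, and of 7 genes that both MSN types express 3 were called higher in D1, with a median of -0.69. The medians of this list were -0.21 in whole cell, -0.18 in male and -0.14 in female RiboTag libraries, beside -0.10, 0.0015 and -0.00017 for all genes. In whole cell libraries 0 of 9 were called and in female RiboTag libraries 0 of 9. In male RiboTag libraries 1 was called, Chga, at -0.53 (adjusted p = 4.13e-06), while 1.62% of all genes were called higher in D1. All of these adjusted p-values are from edgeR. The nuclear D2 libraries were those with the higher receptor gene background given above, and its part in the nuclear list was not tested. Between female and male D2 libraries 1 of the 9 was called, Vgf, at -0.41 (adjusted p = 0.00681, edgeR), beside 0.0696% of all genes.

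Of 9 peptide-degrading enzymes, 2 were tested in whole cell and nuclear and 3 in RiboTag libraries, and none was called. Of 12 genes of Gq signalling, through which NK1 and NK3 act, 8 were tested in whole cell libraries and 7 in the other sets. The 1 called was Arrb1, encoding beta-arrestin 1, at 0.53 (adjusted p = 0.0492) in whole cell libraries by edgeR. That value lies close to the limit of 0.05, and 0.406% of all genes were called higher in D2 there. Of 12 other neuropeptide genes, 7 were tested in whole cell, 8 in nuclear and 5 in RiboTag libraries. Penk was called higher in D2 at 3.22 (adjusted p = 4.07e-06) in whole cell, 2.31 (adjusted p = 5.90e-11) in male and 2.61 (adjusted p = 3.25e-10) in female RiboTag libraries, and Pdyn, the dynorphin precursor, higher in D1 at -3.66 (adjusted p = 0.000190), -2.61 (adjusted p = 2.62e-15) and -2.96 (adjusted p = 1.61e-09). Sst was also called higher in D1 in RiboTag, at -0.95 (adjusted p = 2.25e-06) in males and -1.31 (adjusted p = 0.00253) in females, and Npy at -0.57 (adjusted p = 0.0408) and -0.99 (adjusted p = 0.0386). In nuclear libraries Sst, at -1.94 (adjusted p = 0.00810, edgeR), and Penk were called higher in D1, as were 9.8% of all genes.

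The genes whose RiboTag pattern was most like that of each member were found by Pearson correlation of log2 scaled counts over the 22 libraries, as a description. These libraries share the D1 and D2 groups, so values are also given after group means were subtracted. Tacr1, Tac2 and Tacr3 did not pass the filters and are left out. For Tac1, the 3 most alike of 11237 genes included Drd1 (r = 0.978) and Pdyn (0.965), and after subtraction Drd1 (0.855) and Chrm4 (0.842), a muscarinic receptor gene and D1-MSN marker. For Nts they were Zfp64 (0.881), Nudc (0.744) and Luzp1 (0.743), and after subtraction Zfp64 (0.894), Nudc (0.759) and Sort1 (0.745). For Cartpt they were Fndc9 (0.721), C230038L03Rik (0.692) and Snhg10 (0.689), and after subtraction Lrrn3 (0.803), Fndc9 (0.766) and C230038L03Rik (0.764).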

How the data were processed

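Ribo-depleted total RNA was sequenced as paired ends from stranded libraries. The authors deposited raw counts per gene, made with HISAT2 2.0.5 and featureCounts on GRCm38 per the submitters' processing notes. Fragments were counted over the whole gene body without regard to strand, and multimapping fragments were not counted. A second lane of whole cell D2 number 3 and a repeat column of whole cell D1 number 1 were added to their libraries, so the 49 columns gave 47 libraries. The repeat column correlated with D1 number 1 at r = 0.985 and with the other D1 libraries at 0.851 to 0.965 (Pearson, 21774 genes). Samples titled whole cell D2 that matched no column were not used here.

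Each comparison was tested by edgeR 4.0.16 (quasi-likelihood, TMM, Benjamini-Hochberg over all genes tested) in R 4.3.3, without pairing. Genes needed 1 CPM in at least 2 libraries and the FPKM minimum given with each result, with FPKM on gene span. The call rule for D2 against D1 is given with Tac1, with a limit on the standard error at the 75th percentile in nuclear libraries. Sex and method comparisons were called by adjusted p and fold alone, and the method comparisons used the CPM filter alone. DESeq2 1.42.0 and the other filters, scalings, background subtraction, replicate block, sequencing lane as a covariate (nuclear libraries) and left-out libraries were alternatives. On simulated counts, log2 changes of 1 were recovered in 26% of changed genes for whole cell (16757 genes), 35% for nuclear (9864), 98% for male RiboTag (6800) and 99% for female RiboTag (7067). The 6 genes, the lists and the rule for named genes (the 6 genes, up to 4 called list members with the smallest adjusted p, and the 3 genes most alike in pattern) were chosen with earlier results of these data known. A gene that this rule names for Tac1 is not reported here. No protein sequences were used here.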

Additional observations from a re-analysis of the deposited data

Results flagged for a closer look

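Among 48 sets of 5 to 8 libraries (6 genes in 8 groups), 3 held a library far from the others, a test that chance passes in about 1 of 20 groups. Tac2 reached 1.45 FPKM in whole cell D1 number 4, where the next highest library had 0.853. Tacr3 was at 0.0574 FPKM in whole cell D2 number 5, where the next lowest had 0.213. Nts reached 0.786 FPKM in the female RiboTag D1 library numbered 5 in the header, where the next highest had 0.431.

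The D2 minus D1 difference of Tac1 differed between methods. The interaction term of edgeR was 2.03 on the log2 scale for nuclear minus whole cell libraries and 2.32 for RiboTag minus whole cell libraries. The terms of the label gene Drd2 were called as well, at -5.11 and -2.94.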

How the results depend on the processing

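Tac1 kept its call and direction in whole cell and both RiboTag sets under every alternative run, with log2 fold changes of -3.96 to -3.57, -1.37 to -1.27 and -1.47 to -1.15 when 1 library was left out. Of the 6 genes, nuclear calls were 0, and 1 without the FPKM filter, 2 with exon length (Tac1 and Tacr1) and 1 with at least 5 counts in 5 libraries, a filter chosen after seeing the data. In the same order, 7363 of 33197, 7375 of 28883 and 6866 of 40726 genes were called over all. RiboTag calls rose from 1 to 2 under the filter of 5 counts in both sexes, and in females also without the FPKM filter (2) and with exon length (2). Over all genes, 490 of 15729 in males and 289 of 15935 in females were called under the filter of 5 counts. In females 205 of 11039 were called without the FPKM filter and 203 of 10983 with exon length. Nuclear minus whole cell gave 5 calls in D1 with DESeq2, RiboTag minus whole cell 2 in D1 and 2 in D2 with the background subtracted, and the nuclear minus whole cell interaction 4 with DESeq2 and 3 with its size factors. With those size factors 7481 of 36239 genes were called in that interaction. For the other method fits named here no share over all genes is given, so their counts are not read as particular to these genes. Tac1 led in 3 groups on exon length. Numbers did not pair the libraries (same-number correlations of -0.222 to 0.094 in whole cell and -0.028 to 0.151 in male RiboTag libraries). With the replicate block, Cartpt turned to -0.12 in whole cell and 0.0199 in male RiboTag libraries, Tac1 was -4.09 and -1.33 (both called), and whole cell calls over all genes fell from 215 to 139. No paired analysis was possible for nuclear and female RiboTag libraries because their column numbers do not match the labels' numbers. Cartpt was -0.0355 in whole cell libraries with the background subtracted, and ranged from -0.0136 to 0.48 there and from -0.13 to 0.15 in male RiboTag with 1 library left out, as did Tac2 from -0.11 to 0.32. Nuclear minus whole cell in D2 turned for Tac1 to 0.0409 with DESeq2 and 0.0517 with its size factors, and for Tacr3 to -0.46 with the background subtracted. RiboTag minus nuclear in D2 turned for Tac2 to -0.0520 with DESeq2 and -0.0474 with its size factors. The RiboTag minus nuclear interaction turned, in the same order, for Tac1 to -0.20 and -0.22, for Cartpt to -0.33, -0.34 and, with the background subtracted, -0.18, and for Nts to 3.36. The Nts interaction of nuclear minus whole cell turned to -2.53 with the background subtracted. These turned Nts values rest on subtracted levels of 0 in nuclear D2 numbers 1, 2, 3 and 5. Whole cell calls over all genes ranged from 26 to 705 (60 to 318 with 1 library left out), nuclear calls from 1085 to 7375 (432 to 1658), male RiboTag calls from 171 to 490 and female calls from 128 to 289. The nuclear value of 1085 came from the fit with sequencing lane as a covariate, against 1281 in the main fit. The causes were not tested.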
